A study of Mus musculus with 21 samples.

Results

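The long noncoding RNA Pvt1 was examined in single myofibers together with the transcription factor Myc, its dimer partner Max, and 5 genes that act on cell death and autophagy, Bcl2, Bcl2l1, Bax, Bak1 and Becn1. These are 8 of the 34592 gene and region names on the array. Their probes were chosen by name or by place: 10 probes carry the name of one of these 8 genes, and 41 probes lie in the interval chr15:61860000-62110000 on mm9, which holds Pvt1. As 2 probes are in both sets, there were 49 probes of the 55681 on the array. Each was read apart from the others.

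Myofibers typed as type 1 (slow, MyHC-1) came from soleus, and those typed as type 2B (fast, MyHC-2B) from the extensor digitorum longus (EDL) of untreated CD1 mice of 3 months. There were 11 type 1 and 10 type 2B myofibers, each on its own array, from 6 mice per type and 9 mice in all, 3 of which gave both types. The labels give the mice as male and the study's methods as female. Type and muscle cannot be told apart, since each type was taken from 1 muscle. Each fiber was typed by the myosin protein in a clipped piece, and the RNA of the rest was amplified by PCR, which does not keep the strand, so that forward and reverse probes can read transcripts of either strand.

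Pvt1 lies next to Myc on mouse chromosome 15 and is transcribed in the same direction. It is known as a partner of Myc in tumours, where the gene pair is often amplified together and the RNA is linked to the stability of the Myc protein. Myc binds DNA as a dimer with Max. Bcl2 and Bcl2l1 (Bcl-xL) hold back the death of the cell by binding Bax and Bak1, which permeabilise the outer mitochondrial membrane, and they also bind Becn1 (Beclin 1), which starts the formation of autophagosomes.

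The 3 forward probes of the lincRNA region that ends at base 62090191 are shown because the one locus probe that separated the types is among them. They lie within 200 bases, each is 60 bases long, and the capitals mark the probe called between the types.
A_30_P01025925: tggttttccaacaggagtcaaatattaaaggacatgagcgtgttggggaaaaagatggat
A_30_P01019209: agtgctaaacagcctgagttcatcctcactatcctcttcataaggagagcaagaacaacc
A_30_P01028541: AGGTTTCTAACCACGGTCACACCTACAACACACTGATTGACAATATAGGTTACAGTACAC
The first lies at chr15:62089992-62090051, the second at chr15:62090052-62090111 and the third at chr15:62090132-62090191, all on the plus strand of mm9. Their G and C contents were 40.0%, 45.0% and 41.7%.

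The next sequence is shown because the array carries it under 2 probe names, A_30_P01029562 and A_55_P2155654, which makes it a repeat measurement inside each array. It lies at chr15:62082471-62082530 on the plus strand.
A_30_P01029562: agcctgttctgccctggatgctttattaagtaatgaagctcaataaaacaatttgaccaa
Across the 21 myofibers the signals of both names differed by a mean of 0.02 on the log2 scale with an SD of 0.17, and at most by 0.38. The fibers of one type were farther apart at this sequence, since A_55_P2155654 had an SD of 0.37 among type 1 and 0.72 among type 2B fibers.

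The last pair is shown because the probes face each other. They share 51 bases, in capitals, with the reverse probe at chr15:61919200-61919259 and the forward one at chr15:61919209-61919268.
A_30_P01029184: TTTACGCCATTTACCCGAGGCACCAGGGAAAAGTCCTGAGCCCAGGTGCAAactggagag
A_30_P01018312: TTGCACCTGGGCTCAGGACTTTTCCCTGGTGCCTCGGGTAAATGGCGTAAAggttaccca
The type difference was 0.41 at the reverse and 0.30 at the forward probe on the log2 scale, and neither passed the test (limma, Benjamini-Hochberg adjusted p = 0.33 and 0.80).

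Quality varied between arrays more than between types. Between 38.7% and 79.8% of the probes were well above background on an array, with a median of 57.4% in type 1 and 57.1% in type 2B, and no spot was saturated. The 8 arrays of slide 1, of which 4 carried each type, had the highest shares. One library stood apart: the type 1 fiber S6.4 had a log2 signal of 9.22 at Myh7, the slow myosin, where the other type 1 fibers had 15.53 to 16.28, and 15.22 at Myh2, the type 2A myosin. Other myosin transcripts were present elsewhere too, as the type 1 fiber S16.3 had 13.03 at Myh2 and the type 2B fibers had 1.72 to 12.04 at Myh1, the type 2X myosin. It is the library labelled type 1, and results that rest on it are given without it too. All 7 probes of the slow contractile list fell and all 8 of the fast list rose in type 2B past the Benjamini-Hochberg threshold. Of the satellite cell markers, all 3 Ncam1 probes fell in type 2B (by 2.08 to 2.50). The Ncam1 probe with the smallest fall, A_55_P2050602, entered the test through type 1 alone. Its call cannot be read as that of a gene measured in both types. Pax7 and Myod1 did not pass the test, and Myf5 was too dim to be tested. Fewer attached cells, less RNA per attached cell and less Ncam1 RNA in the fiber itself cannot be told apart.

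Of the 49 probes 47 were tested, as A_30_P01031040 and A_30_P01031483 of the locus were dim in too many fibers. A probe is called where its Bonferroni adjusted p over all 46925 tested probes is under 0.05, and a second, wider rule uses Benjamini-Hochberg adjustment. By Bonferroni 1.43% of all tested probes were called, and 1 of the 47 was, in the direction (higher in type 2B) that 0.612% of all probes took. By Benjamini-Hochberg 7.57% were called, and 3 of the 47 (6.38%) were. In all tested probes 3.48% were called higher and 4.09% lower in type 2B, and among the 47 these were 1 and 2. Both shares were near the background. The 3 probes were A_30_P01028541 of the Pvt1 locus, higher in type 2B, and both probes of Bcl2l1, lower in type 2B. The array names A_30_P01028541 for a lincRNA region, not for Pvt1. It is termed the called Pvt1 probe here because the study pairs it with Pvt1. The median difference was 0.26 over the 47 probes and 0.03 over all tested probes.

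**Figure D1:**
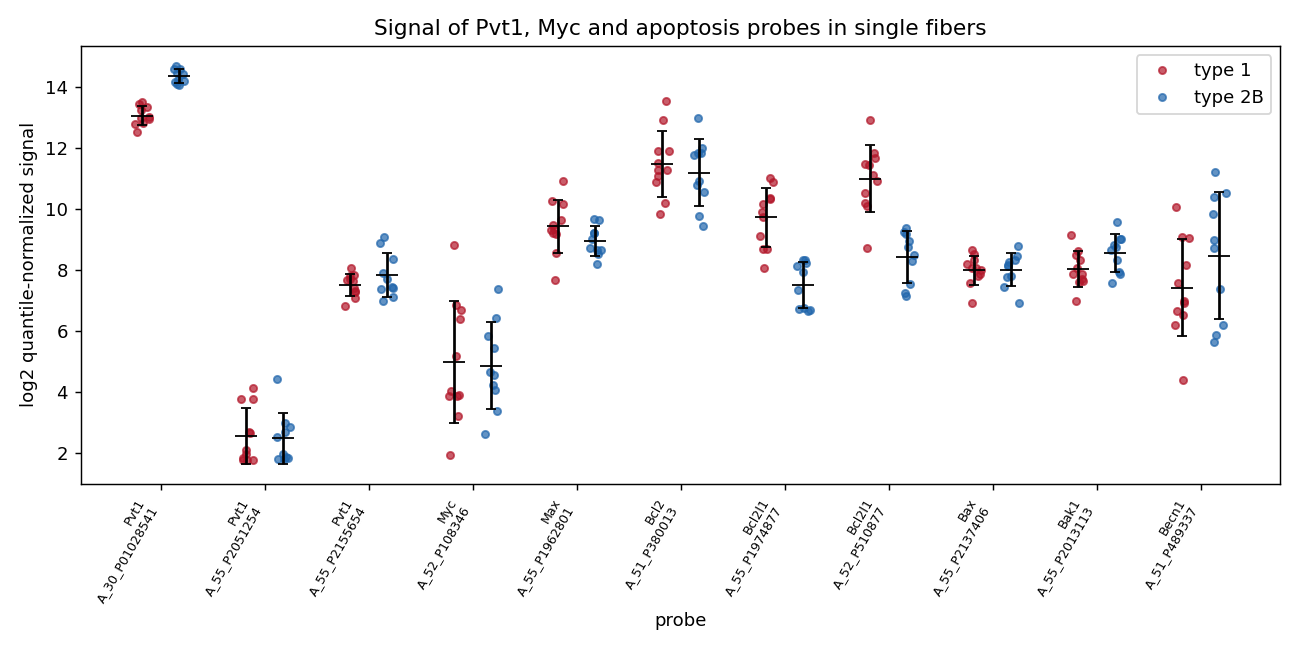
Log2 quantile-normalized signal (y axis) of the called Pvt1 probe, both probes named Pvt1 and the 8 probes of the partner genes (x axis). Each point is a myofiber (11 type 1, 10 type 2B), and bars give mean and SD. Only at A_30_P01028541 do the types not overlap, and both Bcl2l1 probes lie lower in type 2B.

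The Pvt1 locus is described first. At A_30_P01028541 the type 1 myofibers had log2 signals of 12.504 (lowest), 12.97 (median) and 13.51 (highest), and the type 2B myofibers 14.04, 14.31 and 14.68. All 10 type 2B fibers lay above all 10 type 1 fibers with a value. The fiber S15.2 gave no value here, because its spot was flagged as an outlier. Of all tested probes, 0.629% had type 2B fibers wholly above type 1 fibers.

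The mean was 13.05 ± 0.32 in type 1 (SD, n = 10) and 14.33 ± 0.23 in type 2B (SD, n = 10). The difference was 1.29 on the log2 scale (standard error 0.17), or 2.44-fold, with a limma Bonferroni adjusted p of 0.011 and a Benjamini-Hochberg adjusted p of 2.0e-05. By mouse, 13.03 ± 0.25 and 14.32 ± 0.23 (SD, n = 6 mice each) did not overlap either, with an exact permutation test p of 0.0022 (two-sided, the smallest that 6 against 6 allows). As 3 mice gave both types, these means are not fully independent. How many of all tested probes do not overlap by mouse was not computed.

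Within the mice that gave both types the direction was the same in each. The type 2B mean exceeded the type 1 mean by 1.41 in mouse 3, by 1.21 in mouse 4 and by 1.28 in mouse 9. Within the slides that held both types the differences were 1.36 (slide 1), 0.97 (slide 2) and 1.57 (slide 3). The call by Bonferroni was lost with slide as a fixed factor (1.32, limma Bonferroni adjusted p = 0.11) , with each mouse given its own fixed term (1.34, adjusted p = 1.00), on the mean values of the mice (1.29, adjusted p = 1.00) and with spots not positive and significant set missing (1.21, adjusted p = 0.50). It was also lost without mouse 3, 4, 5 or 9 in turn, with differences from 1.23 to 1.34.

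The other probes of Pvt1 did not pass the test. A_55_P2155654, which is named Pvt1, had 6.80, 7.61 and 8.05 (lowest, median, highest) in type 1 and 6.97, 7.56 and 9.06 in type 2B. The groups overlapped and their medians were nearly equal. Its difference was 0.32 (standard error 0.26), with a 95% interval from -0.21 to 0.86, so that the 1.29 seen at the called probe lay outside it. The identical sequence under its other name, A_30_P01029562, gave 0.24 (standard error 0.24).

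The other probe named Pvt1, A_55_P2051254 (chr15:62081020-62081079), was well above background in 1 of 11 type 1 and in 0 of 10 type 2B myofibers. Its type 1 signals ran from 1.74 to 4.11, and those of type 2B reached 4.42. At this probe Pvt1 was not well above background in nearly all fibers, and no fold is given.

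The study's tables pair 8 locus probes with Pvt1, among them the called one. With A_55_P2051254 they make 9 probes, of which 8 were tested. Their differences ran from -0.24 to 1.29, with 6 above and 2 below 0. The 3 probes at the start of the locus, within 0.2 kb of its first probe, illustrate the spread. A_30_P01031088 (chr15:61870890-61870949) had 4.36 to 6.13 in type 1 and 4.50 to 9.31 in type 2B, a difference of 0.77 (standard error 0.45). A_30_P01026168 differed by 0.29 (standard error 0.67). A_30_P01023245, which the study does not pair with Pvt1, differed by 1.01 (standard error 0.62). At these 3 probes in turn the type 2B fiber E9.5 was highest, with 9.31, 8.06 and 8.92. The next type 2B fiber had 7.11, 5.89 and 5.86. Differences without E9.5 alone were not computed. None of the 3 probes passed, and at each the fibers of the types overlapped.

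The direct neighbours of the called probe were read from the same lincRNA region. A_30_P01019209, which ends 20 bases before it, had 2.13, 4.30 and 5.44 (lowest, median, highest) in type 1 and 1.91, 3.98 and 5.12 in type 2B. It was well above background in 6 of 11 type 1 and 4 of 10 type 2B myofibers. Its difference was -0.66 (standard error 0.44), opposite in sign to that of the called probe. A_30_P01025925 had 3.23 to 5.37 in type 1 and 3.66 to 5.96 in type 2B, and its difference of 0.34 (standard error 0.31) did not pass either. Both were well above background in 10 of the 21 fibers, while the called probe was so in all 20 fibers with a value.

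**Figure D2:**
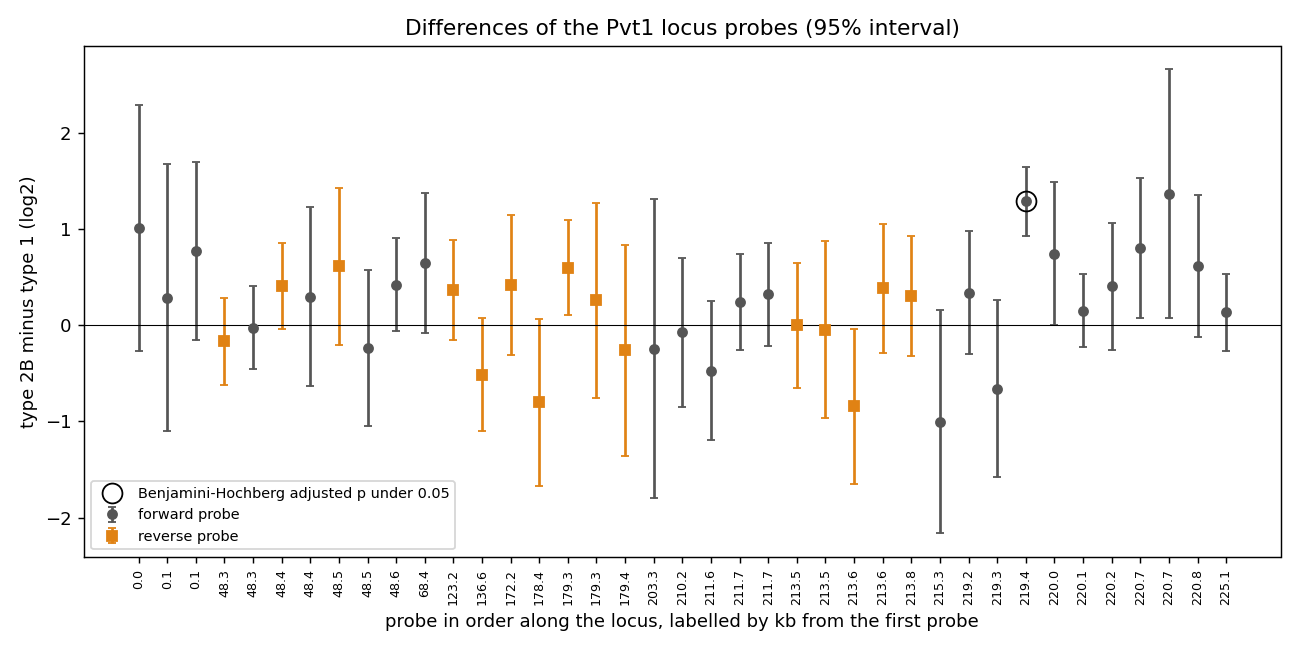
Difference between type 2B and type 1 (log2, y axis) at the 39 tested probes of the Pvt1 locus in their order along it (x axis, labelled by kb from the first probe), with 95% intervals from limma. Circles are forward and squares reverse probes, and the ringed probe, at 1.29, is the only one past the Benjamini-Hochberg threshold.

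Over the whole locus 39 of 41 probes were tested, spread over 225 kb. The probe called was 1 of them by either rule, which is 2.56%, against 1.43% and 7.57% of all tested probes. Of the differences 25 were above and 14 below 0, with a median of 0.30 and a range from -1.004 to 1.37. At an unadjusted limma p under 0.05 there were 6 probes, 5 of them higher in type 2B. The share of all tested probes under that level was not computed, so this count is not read as a result of the locus. Without the called probe the lowest Benjamini-Hochberg adjusted p was 0.15 (limma), at the reverse probe A_30_P01017939 (difference 0.60, standard error 0.24).

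Forward and reverse probes were alike in their medians. The 24 tested forward probes had a median difference of 0.31, and the 15 reverse probes one of 0.26. The 8 probes that were well above background in every fiber with a value had differences from 0.13 to 1.29, all above 0, and only the called probe passed the test. A_30_P01029562 and A_55_P2155654 among them are the same sequence. At A_30_P01026887 and A_30_P01031174 the highest type 2B fiber lay far from the rest. The share of positive differences among all probes as bright was not computed.

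The locus probes not described so far did not pass the test, and at each the fibers of the types overlapped. Between 48.3 and 48.6 kb from the first probe the signs were mixed, with differences of -0.17 at A_30_P01023290, -0.03 at A_30_P01018604, 0.61 at A_30_P01033387, -0.23 at A_30_P01030674 and 0.42 at A_30_P01027639. LOC100045149 (A_55_P2164694), one of the probes paired with Pvt1, differed by 0.65 (standard error 0.35). Farther along, A_30_P01019658 differed by 0.37 and A_30_P01020638 by -0.51. LOC100045246 (A_55_P2179706) was well above background in no fiber, so no difference is given.

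In the second part of the locus most of these probes were dim. The reverse probes A_30_P01026374 and A_30_P01030270 differed by 0.26 and -0.26, and the forward probes A_30_P01025687 and A_30_P01027654 by -0.24 and -0.47. In the run of reverse probes between 213.5 and 213.9 kb, A_30_P01020018 had medians of 4.74 and 4.60, and the differences were -0.04 at A_30_P01030589, -0.84 at A_30_P01025334, 0.38 at A_30_P01021541 and 0.31 at A_30_P01031671. The lowest difference of the locus was at A_30_P01029551, which had 4.83 to 7.18 in type 1 and 1.64 to 7.31 in type 2B. Past the called probe, A_30_P01030282 differed by 0.74. A_30_P01032036 (0.15), A_30_P01026887 (0.40) and A_30_P01027502 (0.13) were well above background in every fiber.

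At the 3 probes of the forward region near the end of the locus (chr15:62091417-62091615) the type 2B fiber E15.3 was the highest. It stood far from the rest at A_30_P01021592 and A_30_P01031174. At A_30_P01027182 the type 2B fiber E15.3 had 9.37, and the other type 2B fibers had 5.88 to 7.90. At A_30_P01021592 it had 9.42 against 2.50 to 5.25, and at A_30_P01031174 it had 10.39 against 7.31 to 7.93. The type differences were 0.80, 1.37 and 0.62, and none passed the test (limma, Benjamini-Hochberg adjusted p = 0.21, 0.23 and 0.38). E15.3 was also the array with the lowest share of probes well above background.

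H2afy3 (A_51_P487668, chr15:62049165-62049224), for which RefSeq has the newer name Macroh2a3 and which lies inside the locus, had 4.93 to 6.70 in type 1 and 2.74 to 6.77 in type 2B. Its difference was -0.80 (standard error 0.42), and it did not pass.

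Likeness across fibers was read as a description: for each probe the deviations from the type means were correlated over the fibers, with 16136 probes of other genes or sites that were well above background throughout. The fibers share slides, array depth and amplification, so these values carry no test. The 5 named genes most like the called Pvt1 probe were LOC634088 (Pearson r = 0.92, n = 20 fibers), Gm5327 (0.92), Gm6981 (0.87), NAP059413-1 (0.86) and NAP058906-1 (0.86). The array describes LOC634088 as similar to glyceraldehyde-3-phosphate dehydrogenase (Gapdh), a glycolytic enzyme, and Gm6981 as a pseudogene. Within type 1 fibers alone r with LOC634088 was 0.96, and within type 2B fibers it was 0.90.

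These probes also had type differences close to that of the called probe. The mean log2 signal at LOC634088 was 13.14 for type 1 and 14.50 for type 2B, a difference of 1.36. Gm5327 differed by 1.15 and Gm6981 by 1.06. The 7 probes named Gapdh, chosen after the likeness was seen, had r from 0.33 to 0.72 with the called probe, and 6 of the 7 had the higher mean in type 2B.

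No other probe of the Pvt1 locus followed the called one in this way. Over both types r ran from -0.43 to 0.39 for the 40 others with a median of 0.06, and none exceeded 0.5 in size. Within a single type some did, as A_30_P01029184 had 0.70 in type 2B and -0.06 in type 1. A_30_P01029551 had -0.68 in type 1 and 0.01 in type 2B. For the neighbour that ends 20 bases before the called probe r over both types was -0.04, and for A_55_P2155654 it was 0.09. As a sequence, the called probe shared at most 13 bases in a row with any of the 55680 other probes, on either strand. Transcripts that are not on the array were not searched.

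**Figure D3:**
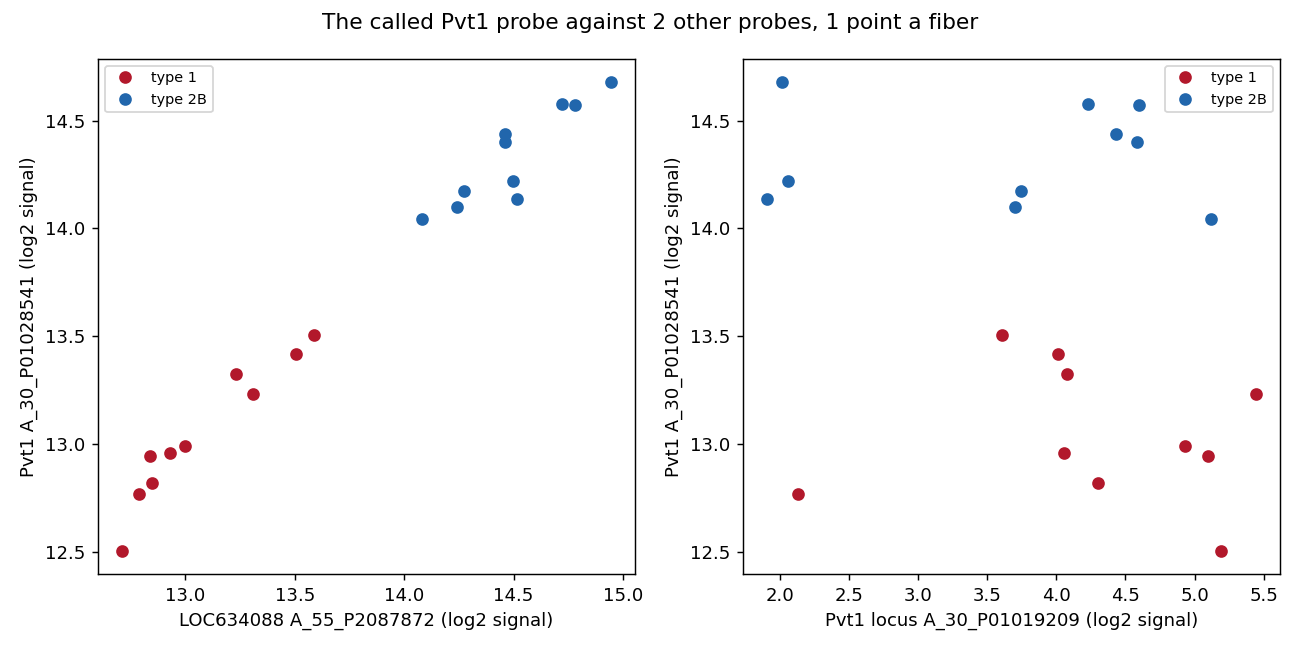
Log2 signal of the called Pvt1 probe (y axis) in each myofiber against that of the LOC634088 probe (left) and that of the locus probe 20 bases away (right). Points are the 20 fibers with a value, and they fall along 1 line on the left (r = 0.92 after removing type means) but not on the right (r = -0.04).

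Myc was dim in single myofibers. Its probe (A_52_P108346, chr15:61821417-61821476), printed on 2 spots and 49.3 kb before the first probe of the locus, had 1.91, 4.02 and 8.80 (lowest, median, highest) in type 1 and 2.59, 4.60 and 7.38 in type 2B. It was well above background in 6 of 11 and 5 of 10 fibers. The types overlapped over nearly the whole range. The difference was -0.08 (standard error 0.71), and its 95% interval from -1.56 to 1.40 spans changes of over 2-fold either way.

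Max, which Myc needs to bind DNA, was well above background in all fibers (A_55_P1962801, chr12:78038272-78038331). Type 1 had 7.65, 9.34 and 10.90 and type 2B 8.18, 8.85 and 9.67. The difference of -0.47 (standard error 0.31) did not pass, and mouse means gave an exact permutation test p of 0.082 (two-sided, n = 6 mice each).

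The strongest differences among the partner genes were at Bcl2l1, whose product Bcl-xL restrains Bax and Bak1. Its probes lie 48.8 kb apart on chromosome 2, and both were lower in type 2B. At A_52_P510877 (chr2:152655185-152655244) type 1 had 8.70, 11.10 and 12.91 (lowest, median, highest) and type 2B 7.14, 8.61 and 9.38. At A_55_P1974877 (chr2:152606404-152606463) type 1 had 8.06, 9.89 and 10.99 and type 2B 6.65, 7.62 and 8.31. At both, 10 of 11 type 1 fibers lay above every type 2B fiber, and the exception was S6.4, the library whose myosin transcripts go against its label. Of all tested probes, 0.71% had type 2B fibers wholly below type 1 fibers. The share that allows an exception was not computed.

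The mean of A_52_P510877 was 10.98 ± 1.10 in type 1 (SD, n = 11) and 8.41 ± 0.84 in type 2B (SD, n = 10). The difference was -2.57 (standard error 0.41), 5.95-fold lower, with a limma Benjamini-Hochberg adjusted p of 1.6e-04. The mean of A_55_P1974877 was 9.71 ± 0.96 and 7.49 ± 0.74 (SD, n = 11 and 10). Its difference was -2.20 (standard error 0.37), 4.61-fold lower, with a limma Benjamini-Hochberg adjusted p of 2.5e-04.

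Both were short of the Bonferroni threshold over all probes (limma, adjusted p = 0.12 and 0.21). Without S6.4 both passed it, with differences of -2.80 (Bonferroni adjusted p = 0.0068) and -2.37 (adjusted p = 0.041). Without mouse 4, which gave S6.4, another type 1 fiber and 1 type 2B fiber, A_52_P510877 passed as well (-2.86, limma Bonferroni adjusted p = 0.027). By mouse the types did not overlap at either probe, with an exact permutation test p of 0.0022 (two-sided, n = 6 mice each). Here too 3 mice gave both types, so that the means are not fully independent. How many of all tested probes do not overlap by mouse was not computed.

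Within mice and slides Bcl2l1 kept its direction. At A_55_P1974877 the type 2B mean was lower by 2.01 in mouse 3, by 2.53 in mouse 4 and by 2.08 in mouse 9, and at A_52_P510877 by 2.66, 0.85 and 2.82. Within slides 1, 2 and 3 the differences were -1.75, -2.35 and -3.06 at the former and -2.09, -2.72 and -3.06 at the latter. With the mouse as a fixed block A_52_P510877 lost its call by Benjamini-Hochberg (-2.27, limma adjusted p = 0.073).

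The satellite cell markers did not move as 1 group. Ncam1 fell in type 2B, Myod1 differed by 0.02, Pax7 by -1.37 without passing, and Myf5 was too dim to be tested. The summed signal of the satellite cell list was 1596 to 8486 in type 1 fibers, against 649 to 4620 in type 2B (medians 3591 and 2134). Of the 4 tested connective tissue probes 1 passed: Col3a1, a fibrillar collagen, fell in type 2B by 2.45 (limma, Benjamini-Hochberg adjusted p = 0.0014). The summed signal of that list was 281 to 4754 in type 1 and 212 to 689 in type 2B (medians 628 and 428), and its marker Pdgfra was well above background in no fiber. The endothelial list had medians of 2133 and 1891, and none of its probes passed. The blood cell list, in which the red cell gene Hbb-b1 was too dim to be tested, had a median sum of 632 in type 1 and 587 in type 2B. The part of attached cells in the Bcl2l1 difference was not tested.

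**Figure D4:**
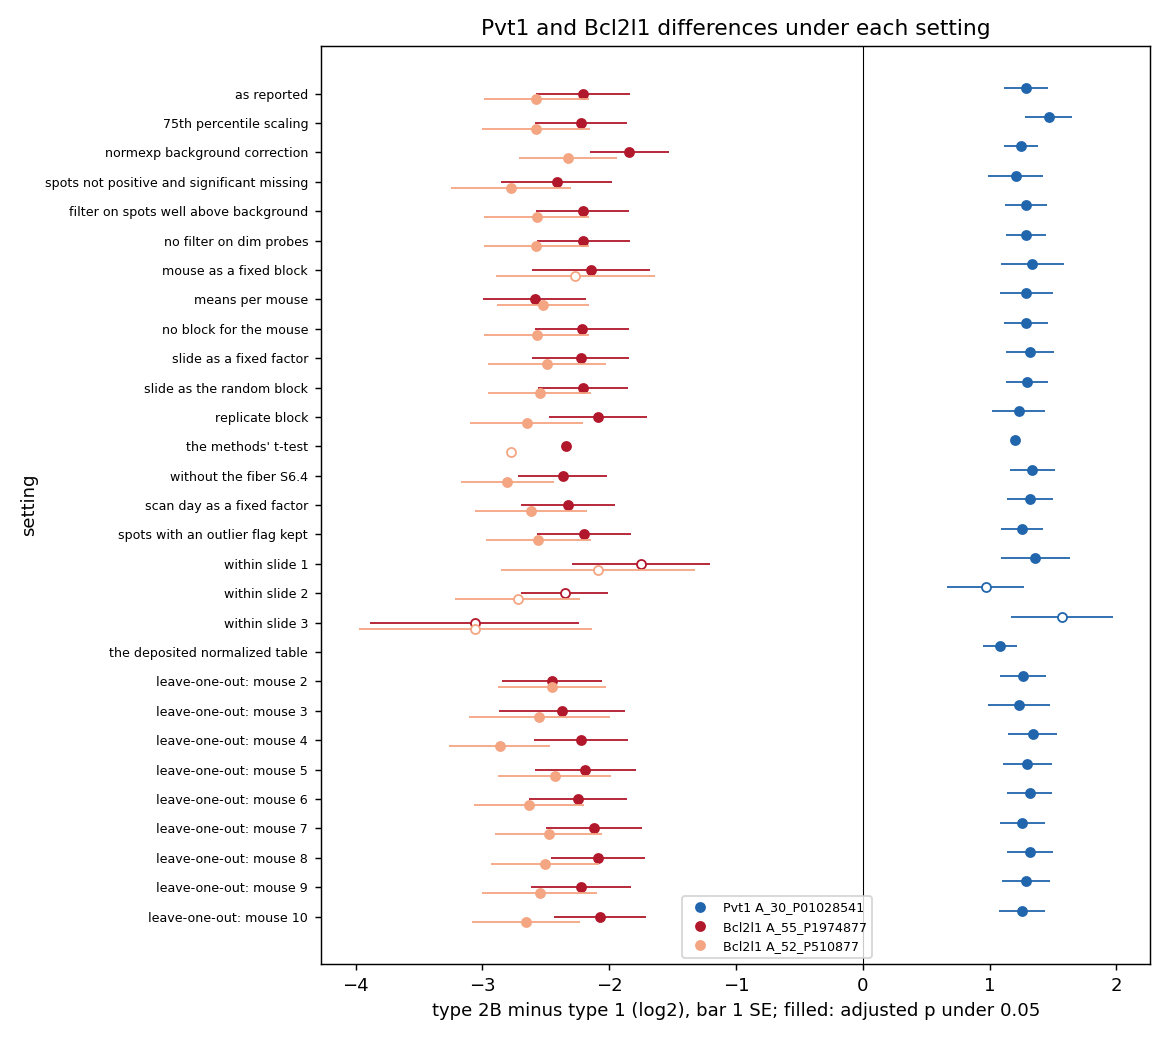
Type 2B minus type 1 difference (log2, x axis) of the called Pvt1 probe and both Bcl2l1 probes under each processing setting (y axis), with bars of 1 standard error where the test gives one. Filled points have a Benjamini-Hochberg adjusted p under 0.05. The called Pvt1 probe lies between 0.97 and 1.57 and the Bcl2l1 probes between -3.06 and -1.75 in the settings shown.

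The other members of the family did not pass. Bcl2 (A_51_P380013, chr1:108608970-108609029), the founding survival factor, had 9.83, 11.28 and 13.52 in type 1 and 9.44, 11.33 and 12.96 in type 2B. The difference was -0.31 (standard error 0.45). Bax (A_55_P2137406, chr7:52717122-52717181) had 6.91, 8.04 and 8.64 against 6.91, 8.13 and 8.76. Its difference of 0.01 (standard error 0.24) had a 95% interval from -0.48 to 0.50.

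Bak1 (A_55_P2013113, chr17:27156807-27156866), which acts beside Bax at the mitochondrion, had 6.95, 7.85 and 9.12 in type 1 and 7.57, 8.68 and 9.56 in type 2B. Its difference of 0.52 (standard error 0.27) did not pass (limma, Benjamini-Hochberg adjusted p = 0.33). Becn1 (A_51_P489337, chr11:101151771-101152713) had 4.39 to 10.04 in type 1, against 5.61 to 11.18 in type 2B. The difference was 1.06 (standard error 0.75), with a 95% interval from -0.49 to 2.60.

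Covariation was read within each type as a description with no test. It covered the 10 probes named for the 8 genes and the called Pvt1 probe, which make 55 pairs. The median r was -0.05 over 11 type 1 fibers (10 for pairs with the called probe) and 0.04 over 10 type 2B fibers. The fibers share slides and array quality. Bcl2 correlated with the share of probes well above background in both types (r = 0.68 and 0.67), and in type 2B A_55_P2155654 of Pvt1 ran against it (r = -0.76). In type 2B A_52_P510877 and A_55_P1974877 of Bcl2l1 and Max also ran with that share (r = 0.67, 0.54 and 0.64). In type 1 these had -0.005, -0.14 and -0.19.

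The called Pvt1 probe and the 2 probes named Pvt1 did not all run the same way with Myc. Over both types the called probe followed LOC634088 (r = 0.92), and none of the other locus probes passed 0.5 in size. Whether the called probe reads Pvt1 was not tested, for these pairs and for those below. The called Pvt1 probe and Myc had r = -0.26 (Spearman rho -0.28, n = 10) in type 1 and r = -0.22 (rho -0.30, n = 10) in type 2B. For A_55_P2155654 and Myc the values were -0.24 (n = 11) and -0.04 (n = 10). The dim Pvt1 probe A_55_P2051254 and Myc had r = 0.37 (rho 0.55, n = 11) in type 1 and 0.50 (rho 0.56, n = 10) in type 2B. Without the 2 fibers farthest from the median the type 1 value was -0.05, and with scaling to the 75th percentile the type 2B value was -0.02. Max and Myc had r = -0.11 in type 1 and 0.71 in type 2B, and without the 2 fibers farthest from the median the latter was 0.31.

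Of the 55 pairs 2 had r beyond 0.5 with 1 sign in both types, and with the means of each slide and type removed 4 other pairs did. Bak1 and Bax had 0.60 in type 1 and 0.64 in type 2B, and with the means of each slide and type removed 0.74 and 0.30. Bax and A_55_P2155654 of Pvt1 had -0.52 and -0.55, and -0.72 and -0.17 with those means removed. Without the 2 fibers farthest from the median the type 2B value of the latter pair was 0.06, so that it rested on them.

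With slide and type means removed, 19 of 55 pairs in type 1 and 14 in type 2B had r beyond 0.5 in size. Without that step these were 9 and 17. Where a slide held only a pair of fibers of a type, their deviations mirror each other, so fewer values are free than fibers. The 4 pairs seen with slide and type means removed were weaker in at least 1 type without that step. The called Pvt1 probe and A_55_P1974877 of Bcl2l1 had -0.81 in type 1 and -0.57 in type 2B, and -0.48 and -0.53 without that step. The called Pvt1 probe and Bak1 had -0.56 in both, and -0.32 and -0.43 without that step. Becn1 had -0.56 and -0.52 with A_55_P1974877 of Bcl2l1 (-0.54 and -0.19 without that step). With A_55_P2155654 of Pvt1 it had 0.77 in both (0.66 and 0.29 without that step). The Bcl2l1 probes had r = 0.43 with each other in type 1 and 0.62 in type 2B.

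For Myc the 5 genes most alike over 21 fibers were Fhod1 (r = 0.79), 2310044G17Rik (0.72), Kdm4a (0.72), Ube2j1 (0.72) and Aimp1 (0.72). Within type 1 Fhod1, 2310044G17Rik and Kdm4a had 0.92, 0.87 and 0.87, and within type 2B 0.40, 0.47 and 0.43. Ube2j1 had 0.74 in type 1 and 0.72 in type 2B, and Aimp1 had 0.76 and 0.70. Since Myc was well above background in 11 of 21 fibers, its values in the other 10 are close to background.

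Other genes of these pathways were read from 8 lists with 81 genes, of which 79 were on the array and 72 tested, by 120 probes. By Benjamini-Hochberg 12 probes of 8 genes passed, 6 in each direction, which is 10.0% against 7.57% of all tested probes. The lists' median difference was -0.15. By Bonferroni 5 of the 120 probes passed, against 1.43% of all tested probes, and 3 of the 5 were probes of Ldha. Of the 118 probes that passed the filter on dim probes in both types, 11 passed by Benjamini-Hochberg. The share among all such probes of the array was not computed.

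Of the 11 tested probes of other Mxd, Mlx and Mga proteins, which compete for or extend the Max dimer, none passed, with differences from -1.15 (Mlx) to 1.12 (Mxd1). Among the regulators of Myc turnover 1 of 11 probes passed: Usp28, a deubiquitinase that stabilises Myc, was 8.40 in type 1 and 7.24 in type 2B and fell by 1.17 (standard error 0.30, limma Benjamini-Hochberg adjusted p = 0.015). The largest difference upward was 0.28 (standard error 0.46) at A_55_P2176724 of the ubiquitin ligase subunit Fbxw7, whose probe A_51_P506683 had -0.17.

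Of the 12 genes in common use as Myc targets 2 passed, both higher in type 2B. All 3 probes of Ldha, a lactate dehydrogenase of glycolysis, rose, by 1.26 to 2.59 (limma Benjamini-Hochberg adjusted p from 6.0e-07 to 3.0e-05). Of the 4 probes of Odc1, the first enzyme of polyamine synthesis, 2 rose, by 1.81 and 1.33, and the others had 1.00 and 1.01. The median of the list's 30 probes was -0.12. The largest difference downward was -1.45 at Tfrc, the transferrin receptor, which did not pass.

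In the Bcl-2 family the other survival members did not pass (4 tested probes), and Mcl1 had differences of -0.60 and -0.05. Among the BH3-only and other death members 3 of 16 probes passed, 2 of Bnip3 and 1 of Bmf. Bnip3, which acts in mitophagy as well as in cell death, fell at 2 of its 3 probes, with differences of -1.45 and -1.65 (limma Benjamini-Hochberg adjusted p = 9.4e-04 and 1.1e-05), and the third had -1.69. Bmf entered the test through type 1 alone, so that its call cannot be read as that of a gene measured in both types. It was near background, well above it in 2 of 11 type 1 and 0 of 10 type 2B fibers, with means of 2.99 and 1.70. Its relative Bnip3l had 4 probes between 0.50 and 1.08, and none passed. Downstream of Bax and Bak1 none of 10 probes passed, and the extremes were Casp9 (-1.22) and Apaf1 (0.38).

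Of the 26 tested autophagy probes around Becn1 3 passed. Gabarapl1, which is joined to the autophagosome membrane, fell by 2.07 (limma Benjamini-Hochberg adjusted p = 5.0e-05). Gabarap fell at 1 of 3 probes, by 0.85, and Atg12, part of the conjugation machinery, rose at 1 of 2, by 1.95. Where a gene had several probes, the others did not pass. None of the 12 probes for mitochondrial dynamics passed, with a list median of -0.50, from -1.34 at Mfn2 to 0.18 at Mff.

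**Figure D5:**
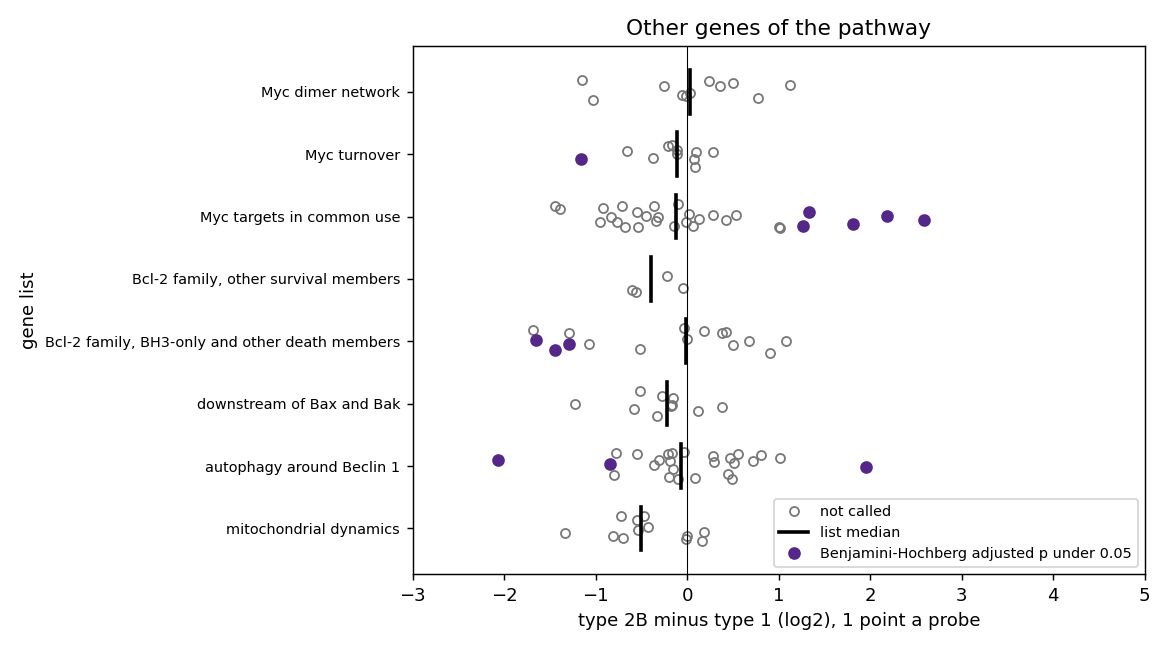
Type 2B minus type 1 difference (log2, x axis) of each tested probe in the 8 gene lists (y axis). Filled points passed the Benjamini-Hochberg threshold (12 of 120 probes), and black bars are list medians, from -0.50 to 0.03.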

How the data were processed

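Single myofibers were profiled on 1-colour Agilent arrays with 60-base probes. The deposited intensity values came from Agilent Feature Extraction 10.7.3.1 (background-subtracted processed signal, probe positions on mm9 per the file headers). Control spots were left out, outlier-flagged spots set missing, spots of one probe averaged, and arrays quantile normalized, then log2 transformed. Probes positive and significant in at least 50% of the fibers of a type were fitted with limma 3.58.1 in R 4.3.3, with the mouse as random block (correlation -0.02), and adjusted over all 46925 tested probes. Mouse means were compared by exact permutation (924 groupings). The authors also deposited a normalized intensity table with 3668 probes, whose columns E13.3 and E12.5 follow each other's scanner output; it was used as an alternative only, with 0.01 as missing. Genes were named from the array and RefSeq. The code was tested on simulated data. Without counts there is no depth, and the number of arrays limits the precision. The members and gene lists were chosen with earlier results of these data known. All probes of the members and the locus are named in the text, and from each list those past Benjamini-Hochberg and the largest difference each way. Nothing says that fibers of one mouse are independent.

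Alternatives covered scaling, background, filters, flags, mouse, slide, scan day, replicate number and left-out mice; scan day and kept outlier flags were chosen after seeing the data. The methods' t-test ran on linear signals. Replicate numbers did not pair the samples.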

Additional observations from a re-analysis of the deposited data

Results flagged for a closer look

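In the group of 10 type 2B fibers, 5 probes of the locus had 1 fiber far from the rest, by the gap to its nearest neighbour as a share of the group's range, past Dixon's 95% limit. With 49 probes tested this way, chance flags about 1 group in 20. Fiber E15.3 was highest at A_30_P01031174, at 10.39 with 7.93 next (share 0.80), and at A_30_P01021592, at 9.42 with 5.25 next (0.604). Fiber E7.7 was highest at A_30_P01026887, at 11.53 with 9.29 next (0.664). Fiber E12.5 was highest at A_55_P2051254 of Pvt1, at 4.42 with 2.96 next (0.55). Fiber E14.3 was lowest at A_30_P01030674, at 1.73 with 4.63 next (0.743). The last 2 spots were not well above background, and none of these probes was called between the types.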

How the results depend on the processing

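By Bonferroni, 0 of the 10 probes named for a member gene were called, and 2 were without the fiber S6.4, both of Bcl2l1; Benjamini-Hochberg called 2. Leaving out 1 mouse at a time gave 0 to 1. In the Pvt1 locus 1 probe was called, and 0 to 1 with each mouse left out. The count was 0 with spots not positive and significant missing, with the mouse as a fixed block, with means per mouse, with slide as a fixed factor, and within slide 1, slide 2 and slide 3. With the replicate number as a block it was also 0 (difference of the called Pvt1 probe 1.23, limma Bonferroni adjusted p = 1.00). Numbers did not pair the samples, as the deviations of 10 same-numbered pairs correlated from -0.16 to 0.20. Of the type 2B fibers, 1 correlated best with its own number. Of the 120 probes of other pathway genes 5 were called by Bonferroni and 12 by Benjamini-Hochberg, against 1.43% and 7.57% of all tested probes. Over 28 alternatives for 47 probes, 102 of 1273 differences changed sign, none of them at a called probe. The methods' t-test left A_52_P510877 of Bcl2l1 uncalled even by Benjamini-Hochberg (adjusted p = 0.19). The cause of these losses was not tested. Probes near background, Myc among them, limit what these arrays can resolve.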
